A study of Homo sapiens with 12 samples.

Results

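NF-κB and inflammatory mediators are the subject here: 35 human genes, chosen by name, that encode NF-κB subunits and their inhibitors, TNF-induced proteins, interleukins, chemokines, colony-stimulating factors, signalling and survival proteins, an adhesion receptor and a pentraxin. They were chosen with earlier results of these data known. Of the 35 genes, 32 had a probe set annotated to that gene alone, among 19775 genes on the array, and all 32 passed the filter on low signal. CSF2, BIRC3 and BCL3 were not analysed here. The cells were A549, an established human lung adenocarcinoma line. In one experiment they received a FAM60A siRNA or a non-targeting siRNA, and in the other an SDS3 siRNA or a separate set of non-targeting controls. Both targets, FAM60A (now named SINHCAF) and SDS3 (now named SUDS3), are subunits of SIN3-HDAC, a co-repressor complex with histone deacetylase activity. Each of the 4 groups had 3 arrays, 12 in all, and RNA was taken 3 days after transfection with 50 nM siRNA. All 4 groups were transfected with an siRNA, and a single siRNA is named for FAM60A, so an effect of that siRNA on other transcripts and an effect of losing FAM60A cannot be told apart. The treatment protocol does not name the SDS3 siRNA, and for SDS3 too these effects cannot be told apart.

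NF-κB is a family of dimeric transcription factors that IκB proteins hold in the cytoplasm. TNF, interleukin-1 and Toll-like receptors activate the IκB kinases, IκB is degraded, and the freed dimers enter the nucleus, where they induce cytokines and chemokines as well as their own inhibitors. Many of these transcripts are also under AP-1 and other factors. A549 cells are widely used to study these responses because they secrete CXCL8 and other chemokines when they are stimulated with TNF or interleukin-1. No such stimulus is named in the labels, so the levels here are those of transfected cells.

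Promoters are shown for 5 neighbouring chemokine genes on chromosome 4, because all 5 carry the κB sequence GGAATTTCC and they did not move together. The sequences come from RefSeq on GRCh38.p14 and are written 5′ to 3′ on the gene's strand, with each motif in capitals. They lie at chr4:73869284-73869353 (plus strand) for CXCL1, chr4:74099234-74099303 (minus) for CXCL2, chr4:74038729-74038798 (minus) for CXCL3, chr4:73998729-73998798 (minus) for CXCL5 and chr4:73740429-73740516 (plus) for CXCL8. All are upstream of the annotated start of transcription. In CXCL8 the first stretch of capitals is the AP-1 heptamer.
CXCL1: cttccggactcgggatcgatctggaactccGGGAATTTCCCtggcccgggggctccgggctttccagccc
CXCL2: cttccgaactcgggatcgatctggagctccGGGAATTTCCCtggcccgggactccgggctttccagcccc
CXCL3: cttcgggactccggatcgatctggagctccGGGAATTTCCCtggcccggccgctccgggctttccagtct
CXCL5: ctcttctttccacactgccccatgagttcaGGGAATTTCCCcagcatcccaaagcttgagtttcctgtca
CXCL8: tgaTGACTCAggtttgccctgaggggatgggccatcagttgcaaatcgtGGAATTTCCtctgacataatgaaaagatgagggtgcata
Over 70 bases placed by the κB sequence, CXCL1 and CXCL3 were identical at 63 positions, CXCL1 and CXCL2 at 57, and CXCL2 and CXCL3 at 53. CXCL5 matched CXCL1, CXCL2 and CXCL3 at 31, 30 and 34 positions. Because CXCL1, CXCL2 and CXCL3 are also close copies in their transcripts, probes can be shared between them, and the split of signal among them is uncertain.

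Further promoters are shown for the genes with some of the largest changes or the closest link to the pathway. They are IL6 (chr7:22727097-22727166, plus strand), NFKBIA (chr14:35404791-35404860, minus) and PTX3 (chr3:157436723-157436792, plus), with a κB sequence in capitals. IL11 (chr19:55370520-55370589, minus) and TNFAIP6 (chr2:151357433-151357502, plus) have an AP-1 heptamer in capitals.
IL6: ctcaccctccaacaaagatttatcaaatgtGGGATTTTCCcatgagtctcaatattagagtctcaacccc
NFKBIA: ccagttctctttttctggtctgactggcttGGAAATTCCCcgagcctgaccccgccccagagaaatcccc
PTX3: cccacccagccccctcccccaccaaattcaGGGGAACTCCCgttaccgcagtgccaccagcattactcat
IL11: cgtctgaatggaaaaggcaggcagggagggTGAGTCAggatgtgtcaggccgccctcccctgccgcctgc
TNFAIP6: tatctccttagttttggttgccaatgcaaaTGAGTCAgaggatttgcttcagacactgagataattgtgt
Windows from 250 bases before to 50 bases after the start of transcription were available for 28 of the 35 genes. Each was searched on both strands for the κB decamer consensus, for GGAATTTCC and for the AP-1 heptamer TGANTCA. The decamer was found in 14 of the 28 windows (50.0%) and in 11.3% of all 35116 promoters. GGAATTTCC was in 9 (32.1%) against 0.461% of all promoters, and it overlaps a decamer match in each of them but CXCL8 and ICAM1. TGANTCA was in 4 (14.3%), those of TNFAIP6, IL1A, IL11 and CXCL8, against 7.71% of all promoters. A match describes these letters only and does not show that a factor binds there.

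Both siRNAs lowered their own target. SINHCAF signal (log2) was 11.99, 11.97 and 12.01 in the FAM60A controls and 9.36, 9.12 and 9.43 in the knockdown, or 15.5% of control. SUDS3 was 10.11, 10.02 and 10.03 in the SDS3 controls and 8.48, 8.32 and 8.62 in the knockdown, or 33.4% of control. No fall of the other target passed in either experiment: SUDS3 differed by 0.04 (log2) in the FAM60A experiment with limma's adjusted p = 0.698 while its second probe set was at 82.5% of control (limma, adjusted p = 0.226), and SINHCAF was higher by 0.35 with SDS3 knocked down, where its second probe set was at 104.0% of control and did not pass. Median array signal lay between 186 and 192.6 on the linear scale in the FAM60A experiment and between 96.8 and 98.3 in the SDS3 experiment, and no level was set across the experiments. All 10 epithelial markers stood above log2 5 in every group, with a summed log2 signal between 17.0 and 17.4. Of these 10, 2 were higher and 3 lower in the FAM60A knockdown, and 1 was higher and 6 lower in the SDS3 knockdown, where their median change was -0.30 and the changes ran from -1.52 to 0.25 (log2). Summed leukocyte, endothelial and fibroblast markers lay between 9.19 and 10.5. Most of these also had group means above log2 5: 9 of 10 leukocyte, 6 of 6 endothelial and 6 of 6 fibroblast markers in the FAM60A groups. In the SDS3 groups the counts were 8, 4 and 6. That level therefore did not set the epithelial markers apart. Of 9 leukocyte markers tested 0 passed in the FAM60A knockdown and 1 was lower in the SDS3 knockdown. Of 6 endothelial markers 0 passed in the FAM60A knockdown and 1 was higher in the SDS3 knockdown. In the FAM60A knockdown 1 of 6 fibroblast markers was higher and 1 lower, and in the SDS3 knockdown 2 were higher and 1 lower. Signal of the 18S rRNA probe sets was higher in the knockdown by 0.28 (log2) with FAM60A and by 0.53 with SDS3 (exact permutation, two-sided, p = 0.1 in each, the smallest possible with 3 against 3). The ACTB 3′ minus 5′ difference, a sign of RNA integrity, shifted by -0.094 with FAM60A knocked down (exact permutation, p = 0.1) and by -0.013 with SDS3 knocked down (exact permutation, p = 0.7). The part of these cell markers and RNA measures in the results was not tested. Separate cultures are not named in the labels, and the p-values therefore cover only the spread among these arrays, which may be technical.

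With FAM60A knocked down, the inflammatory transcripts changed in both directions. IL11, NFKBIZ and SOD2 showed the largest rises, and PTX3, CXCL5, CCL2 and CCL20 the largest falls. Of the 32 genes, 14 rose, 9 fell and 9 did not pass (limma, adjusted p under 0.05 over 18621 genes), where 36.8% of all tested genes passed, 19.2% higher and 17.6% lower. The median log2 change was 0.06 over the 32 genes and -0.02 over all genes, so the group had no shared direction. The median size of change, without sign, was 0.35 (log2) against 0.13 over all genes. Because the genes were chosen with earlier results of these data known, contrasts with all genes, here and below, are a description only. Among the 32 genes, 9 passed with a change of at least 1.5-fold, against 7.34% of all genes, and in 26 of the 32 the knockdown arrays did not overlap the control arrays, against 48.1% of all genes.

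With SDS3 knocked down, the 32 genes moved mostly upward as the arrays were deposited, though with poly-A spike-ins as the scale 8 were higher and 8 lower, against 2.71% and 49.4% of all genes on that scale. TNFAIP6, IL6, IL11, IL32, CCL2, TRAF1 and CXCL1 showed the largest rises, while PTX3 and CCL20 fell. Here 18 rose, 3 fell and 11 did not pass, where 34.6% of all genes passed, 15.8% higher and 18.8% lower. The median log2 change was 0.25 over the 32 genes and 0.01 over all genes. A change of at least 1.5-fold was seen in 10 genes, against 6.96% of all genes. The arrays did not overlap in 25 of the 32, against 47.6% of all genes. With hybridisation spike-ins as the scale, the FAM60A split was 14 higher and 5 lower, against 19.1% and 9.27% of all genes. In these bulk samples fewer expressing cells and less RNA per cell cannot be told apart.

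**Figure D1:**
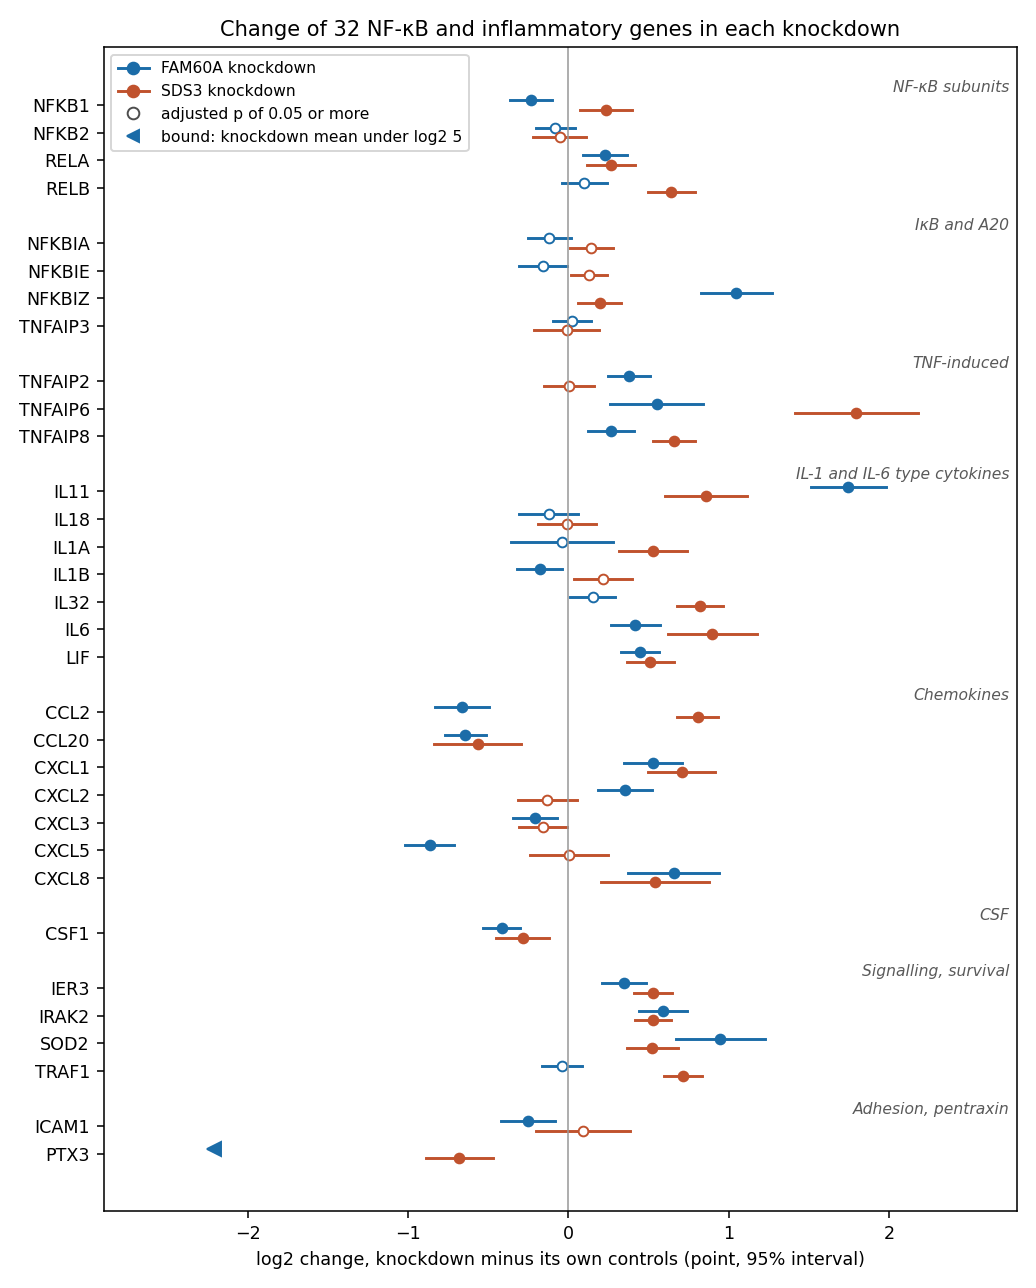
Log2 change of each of the 32 genes (rows, grouped by role) in the FAM60A knockdown (blue) and the SDS3 knockdown (orange), knockdown minus its own 3 controls, with 95% intervals; filled points have an adjusted p under 0.05. PTX3 in the FAM60A knockdown is drawn as a bound at -2.21, and CCL2 lies on opposite sides of 0 in the 2 knockdowns.

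Among the 4 NF-κB subunits measured, 1 rose and 1 fell in the FAM60A knockdown, where 19.2% of all genes rose and 17.6% fell. In the SDS3 knockdown 3 rose, where 15.8% of all genes rose. Of these 3, NFKB1 and RELA turned below 0 under poly-A scaling. NFKB1, which encodes p105 and its product p50, was at 10.04, 9.96 and 10.00 (log2 signal) in the FAM60A controls and 9.69, 9.81 and 9.81 in the knockdown. The groups did not overlap, and NFKB1 fell by 0.23 ± 0.0589 (log2, SE, n = 3 against 3; limma, adjusted p = 0.00995). In the SDS3 experiment NFKB1 was at 9.68, 9.52 and 9.57 in controls and 9.71, 9.83 and 9.93 in the knockdown. There too every knockdown array was above every control, with a rise of 0.23 ± 0.0712 (limma, adjusted p = 0.0326), so the directions were opposite. The difference between the knockdowns was 0.47 (limma, adjusted p = 0.00196). The SDS3 rise no longer passed without control 2 or 3 or knockdown 2 or 3 (0.18 to 0.23), and under poly-A scaling its value was -0.089.

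RELA, the p65 subunit that carries the activation domain, was at 10.77, 10.90 and 10.91 in the FAM60A controls and 11.16, 11.03 and 11.07 in the knockdown. It was at 10.50, 10.32 and 10.35 in the SDS3 controls and 10.59, 10.66 and 10.71 in the knockdown. Neither pair of groups overlapped. RELA rose by 0.23 ± 0.0629 with FAM60A knocked down and by 0.27 ± 0.0653 with SDS3 knocked down (log2, SE; limma, adjusted p = 0.0151 and 0.013), and the SDS3 value turned to -0.057 under poly-A scaling. The interval of the difference ran from -0.16 to 0.23. The FAM60A call was lost without control 1 (0.18) or knockdown 1 (0.19), and the SDS3 call without control 2 (0.23). RELB, a partner of p52 in the non-canonical pathway, was at 8.85, 8.70 and 8.79 in the SDS3 controls and 9.43, 9.33 and 9.50 in the knockdown, a clear gap between the groups. It rose by 0.64 ± 0.0643, or 1.56-fold (limma, adjusted p = 0.000104). In the FAM60A experiment RELB was at 9.35, 9.53 and 9.42 in controls and 9.60, 9.49 and 9.51 in the knockdown, and these groups overlapped (0.10, limma, adjusted p = 0.262). The difference was 0.54 (limma, adjusted p = 0.00058). NFKB2, the precursor of p52, passed in neither on the deposited scale (-0.08 and -0.05), and under poly-A scaling it passed as a fall with SDS3 knocked down (-0.38).

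Of the 4 inhibitors measured, NFKBIZ alone passed in either knockdown on the deposited scale, where 36.8% and 34.6% of all genes passed. NFKBIZ encodes IκBζ, a nuclear IκB protein that is induced by interleukin-1 and acts as a co-activator for some secondary targets. Its signal was 10.09, 9.74 and 10.10 in the FAM60A controls and 11.13, 11.06 and 10.88 in the knockdown, with a wide gap between the groups. It rose by 1.05 ± 0.0993, or 2.07-fold (limma, adjusted p = 1.35e-05). In the SDS3 experiment it was at 10.86, 10.95 and 10.99 in controls and 11.19, 11.07 and 11.13 in the knockdown, a small rise of 0.20 (limma, adjusted p = 0.0298) that did not pass without control 1 or 2 or knockdown 1 or 3 (0.16 to 0.20) and was -0.13 under poly-A scaling. The difference between knockdowns was -0.85 (limma, adjusted p = 0.000214). NFKBIA, the classical IκBα and a direct feedback target, was at 11.50, 11.62 and 11.60 in the FAM60A controls and 11.49, 11.39 and 11.48 in the knockdown. It was at 11.28, 11.23 and 11.21 in the SDS3 controls and 11.41, 11.29 and 11.45 in the knockdown. In both experiments the groups were apart by a narrow margin. Its changes of -0.12 and 0.14 passed in neither experiment (limma, adjusted p = 0.156 and 0.097). The SDS3 value passed without knockdown 2 (0.19). TNFAIP3, the deubiquitinating enzyme A20 that ends the signal, differed by 0.02 and -0.01 and NFKBIE, IκBε, by -0.16 and 0.13, and these did not pass. Under poly-A scaling TNFAIP3 passed as a fall with SDS3 knocked down (-0.33).

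On their chosen probe sets all 3 TNF-induced genes rose with FAM60A knocked down, and 2 of 3 with SDS3 knocked down. Over all genes 19.2% and 15.8% rose. TNFAIP6 encodes TSG-6, a secreted hyaluronan-binding protein with anti-inflammatory activity. Its signal was 5.91, 5.75 and 6.31 in the SDS3 controls and 7.82, 8.06 and 7.49 in the knockdown, so the lowest knockdown array was above the highest control. The rise was 1.80 ± 0.168, or 3.47-fold (limma, adjusted p = 7.11e-05), and a second probe set rose by 2.51. In the FAM60A experiment TNFAIP6 was at 6.20, 6.19 and 6.08 in controls and 6.34, 6.97 and 6.83 in the knockdown, where one knockdown array lay close to the controls. The rise was 0.55 (limma, adjusted p = 0.00657), smaller than with SDS3 by 1.24 (limma, adjusted p = 0.00148). The second TNFAIP6 probe set passed as a rise here too, from a control mean of 4.89, which is under log2 5, to a knockdown mean of 5.92. TNFAIP8, which is linked to cell survival, was at 10.48, 10.41 and 10.55 in the FAM60A controls and 10.85, 10.69 and 10.69 in the knockdown. On the SDS3 arrays TNFAIP8 was at 10.45, 10.56 and 10.62 in controls and 11.20, 11.22 and 11.18 in the knockdown. Both pairs were separate, with rises of 0.27 and 0.66 (limma, adjusted p = 0.00859 and 4.94e-05). Its 2 other probe sets were at 0.15 and 0.06 with FAM60A knocked down and did not pass. With SDS3 knocked down they were at 0.58, which passed, and 0.12, which did not. Neither call on TNFAIP8 held when probe sets of shared sequence were left out. TNFAIP2 rose by 0.38 with FAM60A knocked down and was at 0.00 with SDS3 knocked down. Its other probe set was at 0.10 and 0.13 and passed in neither.

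Of 7 interleukins and related cytokines, 3 rose and 1 fell with FAM60A knocked down and 5 rose with SDS3 knocked down. Over all genes 19.2% rose and 17.6% fell in the former, and 15.8% rose in the latter. IL11, IL6 and LIF, which signal through the receptor chain gp130, rose in both. IL11 encodes interleukin-11, a cytokine of the IL-6 family made by stromal and epithelial cells. It was at 9.72, 9.88 and 9.38 in the FAM60A controls and 11.35, 11.46 and 11.40 in the knockdown, the largest rise among the 32 genes in that experiment. The rise was 1.75 ± 0.106, or 3.36-fold (limma, adjusted p = 5.64e-07). In the other experiment IL11 was at 10.97, 11.39 and 11.43 in controls and 12.11, 12.06 and 12.19 in the knockdown, with no overlap, and rose 1.81-fold (limma, adjusted p = 0.000481). The change was smaller there by 0.89 on the log2 scale (limma, adjusted p = 0.00163), and another probe set of IL11 rose by 0.78 and 0.40. IL6, a central acute-phase cytokine, was at 6.98, 6.95 and 6.75 in the FAM60A controls and 7.32, 7.36 and 7.26 in the knockdown. Its SDS3 arrays were at 6.72, 6.89 and 7.08 in controls and 7.84, 7.55 and 7.98 in the knockdown. IL6 thus stood higher on every knockdown array, with rises of 0.42 and 0.90 (limma, adjusted p = 0.000693 and 0.000575). LIF, which maintains stem cells in culture and has inflammatory roles, rose by 0.45 and 0.51, and the interval of its difference ran from -0.11 to 0.24.

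Other interleukins passed in one knockdown or in neither. IL32, a cytokine that induces TNF and CXCL8 in other cells, was at 7.72, 7.80 and 7.89 in the SDS3 controls and 8.56, 8.69 and 8.64 in the knockdown, well apart. It rose 1.77-fold (log2 0.82 ± 0.0624; limma, adjusted p = 2.34e-05). In the FAM60A experiment it was at 8.75, 8.87 and 8.71 in controls and 8.85, 8.98 and 8.96 in the knockdown, and 0.15 did not pass (limma, adjusted p = 0.0899) unless control 2 was left out (0.20). The difference was 0.67 (limma, adjusted p = 8.92e-05). IL1A, the cell-associated form of interleukin-1, rose by 0.53 with SDS3 knocked down on its chosen probe set, but its other probe set was at -0.078. IL1B, the secreted form, fell by 0.18 with FAM60A knocked down, and the call was lost without control 1, 2 or 3 or knockdown 2 or 3 (-0.20 to -0.14). With SDS3 knocked down IL1B was 0.22 higher and did not pass, though it did without control 1 (0.27). IL18 was at -0.12 and -0.01 and passed in neither on the deposited scale, and under poly-A scaling it passed as a fall with SDS3 knocked down (-0.33).

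All 7 chemokines passed in the FAM60A knockdown, 3 higher and 4 lower, where 36.8% of all genes passed. In the SDS3 knockdown 3 were higher and 1 lower, where 34.6% of all genes passed. CCL2, which attracts monocytes, moved in opposite directions. It was at 10.33, 10.45 and 10.32 in the FAM60A controls and 9.55, 9.84 and 9.72 in the knockdown, a fall to 63.2% of control (log2 -0.66 ± 0.0764; limma, adjusted p = 5.54e-05). It was at 11.46, 11.33 and 11.40 in the SDS3 controls and 12.20, 12.16 and 12.25 in the knockdown, a rise of 1.75-fold (log2 0.81 ± 0.0557; limma, adjusted p = 1.46e-05). In neither experiment did the groups overlap, and the difference of 1.47 (limma, adjusted p = 2.33e-07) passed under every alternative. CCL20, the ligand of CCR6 on lymphocytes and dendritic cells, was at 8.19, 8.20 and 8.12 in the FAM60A controls and 7.59, 7.46 and 7.53 in the knockdown. On the SDS3 arrays CCL20 was at 7.12, 6.96 and 7.25 in controls and 6.61, 6.28 and 6.74 in the knockdown. It fell in both, to 64.0% and 67.6% of control (limma, adjusted p = 9.16e-06 and 0.0061).

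**Figure D2:**
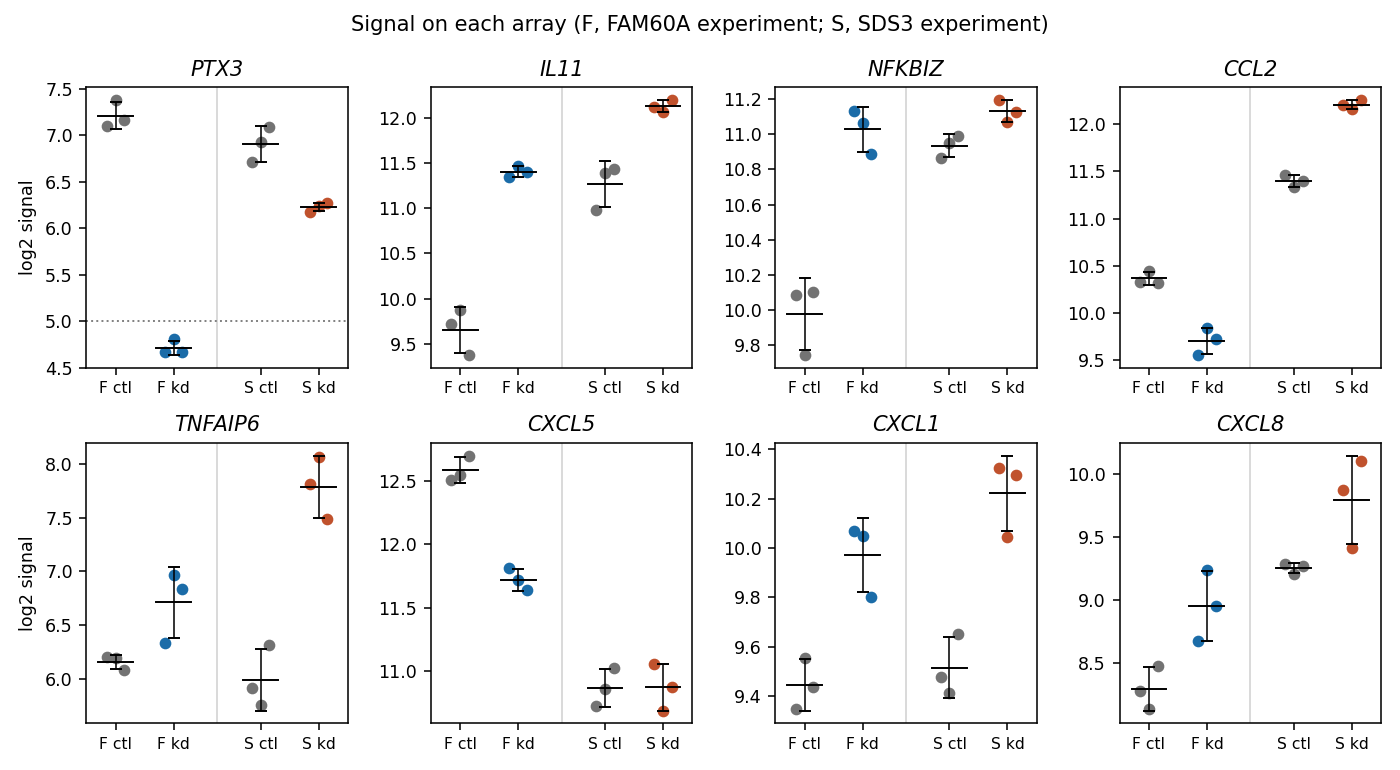
Log2 signal on each array for 8 of the genes, in the FAM60A experiment (F ctl, control; F kd, knockdown) and the SDS3 experiment (S ctl, S kd). Points are single arrays, bars the mean ± SD of 3, and axes differ between panels; the dotted line in the PTX3 panel marks log2 5, and the 3 FAM60A knockdown arrays lie below it.

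The chemokines that carry GGAATTTCC divided. CXCL1, a neutrophil attractant, was at 9.34, 9.55 and 9.43 in the FAM60A controls and 10.07, 10.05 and 9.80 in the knockdown. SDS3 controls gave 9.48, 9.41 and 9.65 and the knockdown 10.32, 10.04 and 10.30. Knockdown arrays were higher in both, with rises of 0.53 ± 0.0827 and 0.71 ± 0.0908 (limma, adjusted p = 0.000475 and 0.000418). CXCL2 was at 9.83, 10.04 and 9.97 in the FAM60A controls and 10.27, 10.43 and 10.21 in the knockdown, a rise of 0.36 (limma, adjusted p = 0.00351). On the SDS3 arrays it was at 9.29, 9.28 and 9.34 in controls and 9.17, 9.01 and 9.33 in the knockdown, which overlapped (-0.13, limma, adjusted p = 0.25). That value passed as a fall without SDS3 knockdown 3 (-0.21) and under poly-A scaling (-0.45). The CXCL2 difference was -0.49 (limma, adjusted p = 0.00689). CXCL3 was at 8.22, 8.37 and 8.35 in the FAM60A controls and 8.07, 8.09 and 8.16 in the knockdown. On the SDS3 arrays CXCL3 was at 7.45, 7.50 and 7.58 in controls and 7.24, 7.37 and 7.43 in the knockdown. The knockdown arrays lay just below the controls in both. The fall of 0.21 with FAM60A knocked down passed (limma, adjusted p = 0.0215) but not without control 2 or 3 or knockdown 1 or 2 (-0.20 to -0.18). The SDS3 value of -0.16 did not pass on the deposited scale (limma, adjusted p = 0.0925). It passed as a fall under hybridisation spike-in scaling and under poly-A scaling (-0.48 under the latter).

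CXCL5, another neutrophil attractant, was at 12.51, 12.55 and 12.70 in the FAM60A controls and 11.81, 11.72 and 11.64 in the knockdown. It fell to 54.9% of control (log2 -0.86 ± 0.0697; limma, adjusted p = 4.24e-06), and 2 further probe sets fell by 0.62 and 0.86. In the SDS3 experiment the values were 10.72, 10.86 and 11.02 in controls and 11.06, 10.69 and 10.87 in the knockdown, which overlapped (0.00, interval from -0.24 to 0.24). The difference was 0.87 (limma, adjusted p = 0.000282), but on the 2 further probe sets it was 0.53 and 0.63 and did not pass (limma, adjusted p = 0.0788 and 0.0935), and the call was lost when probe sets of shared sequence were left out. CXCL8 encodes interleukin-8. It was at 8.28, 8.13 and 8.48 in the FAM60A controls and 8.68, 9.24 and 8.95 in the knockdown, a rise of 1.58-fold (limma, adjusted p = 0.002). It was at 9.29, 9.21 and 9.27 in the SDS3 controls and 9.87, 9.41 and 10.10 in the knockdown, which is also separate but more spread. The SDS3 rise of 0.54 (limma, adjusted p = 0.0211) did not pass without control 2 (0.52) or 3 (0.55) or knockdown 1 (0.50) or 3 (0.39). The interval of the difference for CXCL8 ran from -0.59 to 0.35. CSF1, the growth factor of macrophages, fell by 0.42 and 0.28 on its chosen probe set, its 3 other probe sets did not pass, and the SDS3 call was lost without knockdown 2 (-0.25).

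Read against the promoter sequences, a κB match went with no common direction. Of the 14 tested genes whose window held the decamer or GGAATTTCC, 5 rose and 6 fell with FAM60A knocked down, and 6 rose and 2 fell with SDS3 knocked down. Of the 11 tested genes whose window held neither, 7 rose and 1 fell, and 8 rose and 0 fell, respectively. Over all tested genes 19.2% rose and 17.6% fell with FAM60A knocked down, and 15.8% and 18.8% with SDS3 knocked down. The SDS3 counts moved with the scale: under poly-A scaling 3 rose and 5 fell among the 14, and 4 rose and 1 fell among the 11. The 4 genes with TGANTCA gave 3 rises with FAM60A knocked down and 4 with SDS3 knocked down, and 3 and 2 under poly-A scaling. IL1A, 1 of these 4, was at -0.078 on its other probe set with SDS3 knocked down. Of the 21 tested genes without TGANTCA, 9 rose and 7 fell with FAM60A knocked down, and 10 rose and 2 fell with SDS3 knocked down. Under poly-A scaling 4 rose and 4 fell, and 5 rose and 6 fell, respectively. These are counts of few genes, given as a description.

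Of the signalling and survival genes, 3 of 4 rose with FAM60A knocked down and 4 of 4 with SDS3 knocked down, where 19.2% and 15.8% of all genes rose. SOD2 encodes the mitochondrial superoxide dismutase, a classical NF-κB target. It was at 8.28, 8.58 and 7.97 in the FAM60A controls and 9.10, 9.26 and 9.31 in the knockdown, a rise of 1.93-fold (limma, adjusted p = 0.000149). In the SDS3 experiment it was at 9.81, 9.74 and 9.97 in controls and 10.43, 10.32 and 10.34 in the knockdown, a rise of 0.52 (log2; limma, adjusted p = 0.000516). The FAM60A controls varied most, and the difference of -0.42 (limma, adjusted p = 0.0731) passed only without FAM60A control 2 (-0.58) among the arrays left out. It also passed under hybridisation spike-in scaling and under poly-A scaling (-0.65 under the latter). TRAF1, an adaptor of TNF receptor family members, was at 7.14, 7.23 and 7.17 in the SDS3 controls and 7.93, 7.85 and 7.92 in the knockdown. It rose 1.64-fold (limma, adjusted p = 1.96e-05). On the FAM60A arrays its values were 7.89, 7.80 and 7.75 in controls and 7.77, 7.75 and 7.80 in the knockdown, which overlapped (-0.04), and the difference was 0.75 (limma, adjusted p = 6.15e-06). IRAK2, a kinase of the interleukin-1 receptor pathway, was at 10.46, 10.63 and 10.54 in the FAM60A controls and 11.22, 11.14 and 11.04 in the knockdown. On the SDS3 arrays IRAK2 was at 10.47, 10.43 and 10.46 in controls and 11.02, 10.93 and 11.00 in the knockdown. All knockdown arrays were higher, with rises of 0.59 and 0.53 (limma, adjusted p = 5.52e-05 and 7.89e-05), and the interval of their difference ran from -0.24 to 0.12. IER3, an early-response gene tied to survival, rose by 0.35 and 0.53.

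PTX3 showed the largest fall of the 32 genes in both knockdowns. It encodes a long pentraxin, a secreted pattern-recognition protein. Its signal was 7.10, 7.38 and 7.16 in the FAM60A controls and 4.67, 4.80 and 4.67 in the knockdown, so the knockdown mean was under log2 5 and PTX3 was at least 4.64-fold lower (limma, adjusted p = 1.03e-08). In the SDS3 experiment it was at 6.71, 6.93 and 7.09 in controls and 6.18, 6.23 and 6.27 in the knockdown, a fall to 62.4% of control (limma, adjusted p = 0.000512). Both pairs were separate, and the falls differed by at least 1.53 on the log2 scale (limma, adjusted p = 3.38e-07). ICAM1, the adhesion receptor for leukocyte integrins, fell by 0.25 with FAM60A knocked down on its chosen probe set (limma, adjusted p = 0.0239), a call that was lost without control 2 or 3 or knockdown 1 or 2 (-0.25 to -0.19). The other 2 probe sets were at 0.028 and 0.004 with FAM60A knocked down and did not pass. With SDS3 knocked down the chosen probe set gave 0.09 (limma, adjusted p = 0.645), while the other 2 probe sets rose by 0.38 and 0.64, so the probe sets of ICAM1 disagreed. The difference between knockdowns was 0.34 on the chosen probe set and did not pass. On the others it was 0.35, which did not pass, and 0.63, which passed.

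**Figure D3:**
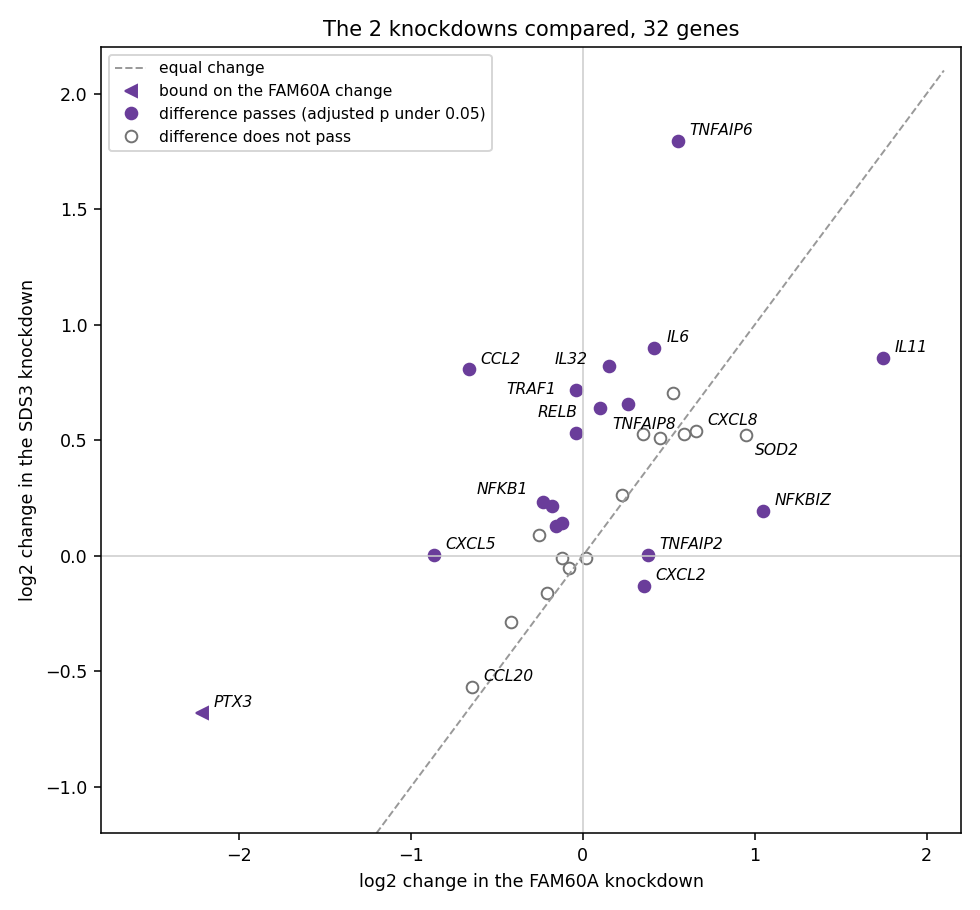
Log2 change of each of the 32 genes in the FAM60A knockdown (horizontal) and in the SDS3 knockdown (vertical), each against its own controls, with the dashed line at equal change; filled points are the 18 genes whose difference passed. CCL2 lies upper left, IL11 and NFKBIZ lie right of the line, and PTX3 is drawn at its bound of -2.21.

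Set side by side, 12 genes rose in both knockdowns, against 9.33% of all tested genes. They are RELA, NFKBIZ, TNFAIP6, TNFAIP8, IL6, IL11, LIF, CXCL1, CXCL8, SOD2, IRAK2 and IER3. Of these, RELA and NFKBIZ turned below 0 in the SDS3 experiment under poly-A scaling. No other tested probe set passed for the SDS3 rises of RELA (0.12), NFKBIZ (0.12) and CXCL8 (0.32). Nor did any for the FAM60A rises of IRAK2 (0.24) and TNFAIP8 (0.15 and 0.06). Among all FAM60A calls, 13 were on genes with other tested probe sets, and for 7 another passed in the same direction. Among the SDS3 calls this was 5 of 10, and for 0 did another pass in the opposite direction in either experiment. CCL20, CSF1 and PTX3 fell in both, 3 of 32 against 8.76% of all genes. NFKB1 and CCL2 passed in opposite directions, 2 of 32 against 2.59%. A further 5 passed in neither, against 49.3%. The 2 experiments share no control array. Target, experiment, array signal level and depth of knockdown differ together between them, and their parts in a difference cannot be told apart. The change differed between knockdowns for 18 of the 32, 14 of them more positive with SDS3 and 4 less positive (limma, adjusted p under 0.05 for the contrast over 12 arrays), where 25.3% of all genes passed, 9.99% more positive and 15.3% less positive. For 8 of them the difference was at least 1.5-fold, against 5.89% of all genes. With hybridisation spike-ins as the scale this split was 8 and 5, against 2.94% and 20.4% of all genes, and with poly-A spike-ins it was 4 and 5, against 1.05% and 12.9%. The 4 genes with a less positive change in the SDS3 knockdown were NFKBIZ, TNFAIP2, IL11 and CXCL2. On the other TNFAIP2 probe set the difference was 0.03 and did not pass. Of the 12 fits that each left out an array, the difference of IL1A (0.57) did not pass in 9 (0.41 to 0.59 there), that of IL6 (0.48) in 7 (0.39 to 0.48) and that of NFKBIA (0.26) in 7 (0.22 to 0.26). That of NFKBIE (0.28) did not pass without SDS3 knockdown 2 (0.26), and that of ICAM1 passed without SDS3 control 1 (0.45).

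Scaling bears on the smaller changes. The mean poly-A spike-in signal was higher in the SDS3 knockdown than in its controls by 0.32 (log2; exact permutation, two-sided, p = 0.1, the smallest possible with 3 against 3) and in the FAM60A knockdown by 0.10 (exact permutation, p = 0.5). With arrays scaled to these spike-ins, an alternative added once the data had been seen, the median change over all genes was -0.32 in the SDS3 experiment and -0.12 in the FAM60A experiment. Changes in the text are therefore relative to the bulk of transcripts. Under that scale the calls on RELB, IL1A, LIF, CXCL8, SOD2, IRAK2 and IER3 no longer passed in the SDS3 knockdown, where their values were 0.19 to 0.32, and NFKB2, TNFAIP3, IL18, CXCL2 and CXCL3 passed as falls of -0.48 to -0.33. On the FAM60A arrays the mean poly-A spike-in signal was 10.95, 11.03 and 11.06 (log2) in controls and 10.93, 11.25 and 11.16 in the knockdown. In the FAM60A knockdown 10 calls no longer passed under that scale, although each gene moved by only -0.10. The part of the spread in spike-in signal in this was not tested. The falls of NFKB1, IL1B and CXCL3 were then larger in size (-0.33, -0.28 and -0.31), and the rises of RELA, TNFAIP2, TNFAIP8, IL6, LIF, CXCL2 and IER3 were 0.13, 0.28, 0.16, 0.32, 0.35, 0.25 and 0.25. Under every alternative run, 11 of the 23 FAM60A calls passed in the same direction: IL11, NFKBIZ, SOD2, CXCL8, TNFAIP6, IRAK2 and CXCL1 higher, and PTX3, CXCL5, CCL2 and CCL20 lower. The same was true of 9 of the 21 SDS3 calls: TNFAIP6, IL6, IL11, IL32, CCL2, TRAF1 and CXCL1 higher, and PTX3 and CCL20 lower.

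**Figure D4:**
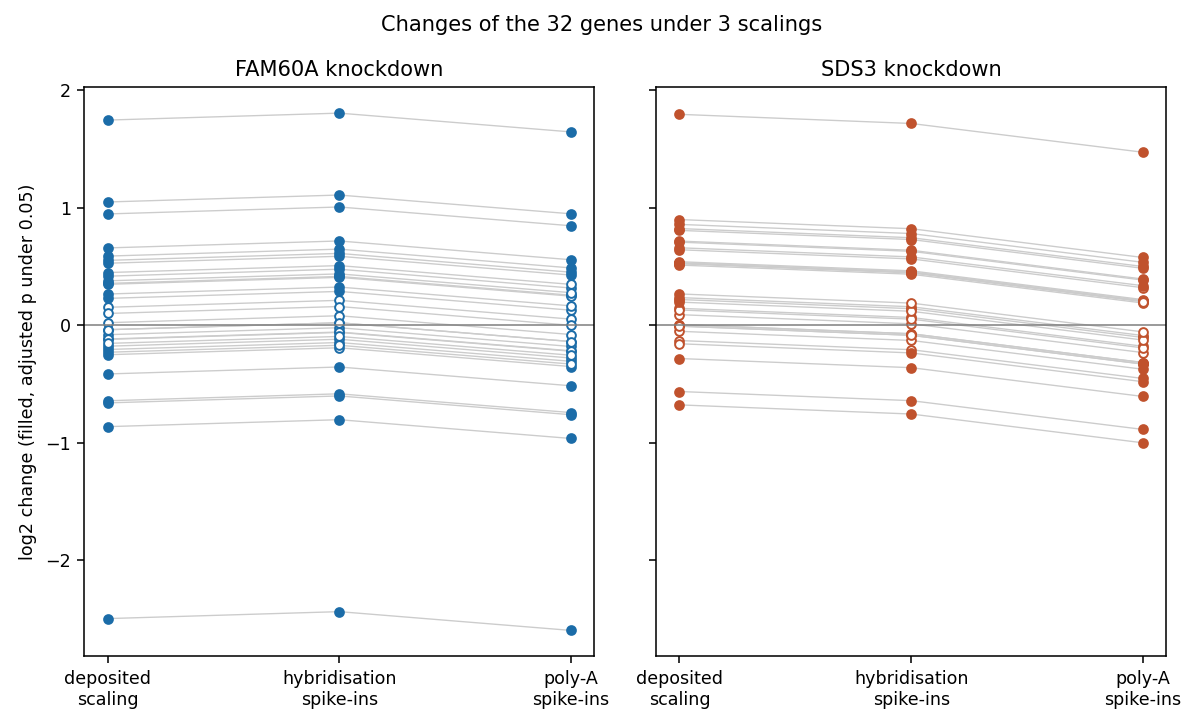
Log2 change of the 32 genes in each knockdown (panels) with the deposited scaling, with arrays scaled to hybridisation spike-ins and with arrays scaled to poly-A spike-ins; grey lines join a gene, filled points have an adjusted p under 0.05, and PTX3 is drawn at its fitted value. In the SDS3 knockdown the poly-A scale lowers every gene by the same amount, and 8 genes then pass above 0 and 8 below.

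Other genes of the pathway were described by lists of 109 tested genes, of which 26 rose and 18 fell with FAM60A knocked down and 32 rose and 22 fell with SDS3 knocked down. These are 40.4% and 49.5% of the lists, where 36.8% and 34.6% of all tested genes passed. Of 20 ligands and receptors that feed NF-κB, 1 was higher and 5 lower in the FAM60A knockdown (30.0% passing) and 2 higher and 8 lower in the SDS3 knockdown (50.0%). TLR3, the sensor of double-stranded RNA, fell by 1.15 (log2) with FAM60A knocked down. With SDS3 knocked down TLR3 and TNFSF10 were among the 8 lower, but both of their group means were under log2 5 and no size of change is given. TLR6 fell by 0.61 and 0.50 (log2, FAM60A then SDS3), and IL1RAP, the co-receptor of interleukin-1, by 0.60 and 0.58. IL1R1, the interleukin-1 receptor itself, fell by 0.74 with SDS3 knocked down and was at -0.12 with FAM60A knocked down. Among 23 adaptors and kinases, 8 rose and 6 fell with FAM60A knocked down (60.9% passing) and 7 rose and 3 fell with SDS3 knocked down (43.5%). IKBKB, an IκB kinase, rose by 0.67 and MYD88, the adaptor of Toll-like and interleukin-1 receptors, by 0.63 with FAM60A knocked down, and with SDS3 knocked down MYD88 rose by 0.25, or -0.077 under poly-A scaling. TRAF5 rose by 0.66 with SDS3 knocked down, and MAP3K14, the kinase of the non-canonical pathway, by 0.37 and 0.53. TRAF3, which restrains that kinase, rose by 0.27 and 0.33. The calls on MAP3K14 and TRAF3 did not pass under poly-A scaling in either knockdown.

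Of 16 further inhibitors and decay factors, 4 rose and 2 fell with FAM60A knocked down (37.5% passing), and 4 rose and 5 fell with SDS3 knocked down (56.2%). PDLIM2, which promotes the degradation of nuclear RELA, rose by 0.70 and 1.30. SIGIRR, a negative regulator of interleukin-1 and Toll-like receptor signalling, rose by 0.51 with FAM60A knocked down and fell by 0.50 with SDS3 knocked down (difference -1.01; limma, adjusted p = 1.39e-06). ZFP36L1, an mRNA decay factor, rose by 0.64 with FAM60A knocked down, OTULIN, a deubiquitinating enzyme, by 0.52, and TRAFD1 fell by 0.46 with SDS3 knocked down. The OTULIN value was 0.03 when all its probe sets were averaged. Of 28 further targets, 8 rose and 1 fell with FAM60A knocked down (32.1% passing) and 15 rose and 2 fell with SDS3 knocked down (60.7%), and SELE, one of the latter 2, had both group means under log2 5. IL15, a cytokine of natural killer and T cells, rose by 0.81 with FAM60A knocked down and was at 0.09 with SDS3 knocked down. Complement C3 rose by 0.80 and 0.76. JUNB, an AP-1 subunit, rose by 0.73 with FAM60A knocked down. MMP9, a gelatinase, rose by 1.04 and BIRC2, an inhibitor of apoptosis, by 0.67 with SDS3 knocked down.

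Receptors and partners of the cytokines were split, with 5 of 22 higher and 4 lower in the FAM60A knockdown (40.9% passing) and 4 higher and 4 lower in the SDS3 knockdown (36.4%). IL6ST encodes gp130, the shared receptor chain of IL-6, IL-11 and LIF, and it rose by 1.26 with FAM60A knocked down and by 1.76 with SDS3 knocked down. IL6R, the chain that binds IL-6 itself, fell by 0.81 and 0.84. ACKR3, an atypical chemokine receptor, rose by 2.15 and 0.73, a difference of -1.42 (limma, adjusted p = 1.79e-06). IL1R2, the decoy receptor of interleukin-1, fell by 0.35 and 0.90. These lists and their named genes were chosen with results of these data known.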

How the data were processed

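The 35 genes, the further lists and the rule for naming genes were chosen with earlier results of these data known. Biotin-labelled RNA from 12 samples was hybridised to an Affymetrix expression array with 54675 probe sets. The authors deposited a linear intensity for each probe set, made with RMA per the submitters' processing notes; the design had assumed log2 values, so log2 was taken. RMA makes the distributions of its arrays alike, and thereby hides shifts of the whole transcriptome. Its settings, and which arrays it treated as one set, are not stated in the labels.

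Platform annotation gave 1 symbol to 41097 probe sets, several to 1801 and none to 11777, and RefSeq's GRCh38.p14 table, matched by Entrez identifier, updated 41043 of the symbols. Each gene was its own probe set with the highest mean over 12 arrays, and genes with at least 3 arrays at log2 5 were tested, 18621 of 19775. In R 4.3.3, limma 3.58.1 (lmFit, then eBayes; Benjamini-Hochberg over all tested genes; threshold 0.05) set each knockdown against its own controls over 6 arrays, and the difference between knockdowns was a contrast over 12 arrays. The script was tested on simulated data. Where a group mean was under log2 5, the change is a bound. Named genes were those passing with at least 1.5-fold, 7 genes fixed by name, and up to 3 of each further list per knockdown with the largest passing change.

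The alternatives were other filters, probe set rules, scalings, variance models and thresholds, a replicate block and each array left out. The number of arrays, 3 per group, limits the precision.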

Additional observations from a re-analysis of the deposited data

Results flagged for a closer look

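For 18 of the 32 genes the test of the difference itself (limma, contrast over 12 arrays, adjusted p under 0.05) showed that the change under SDS3 knockdown differed from the change under FAM60A knockdown. Values are the SDS3 change minus the FAM60A change on the log2 scale. Each target was knocked down in its own experiment, so a difference between targets and one between experiments cannot be told apart. Among transcription factors and inhibitors the difference was 0.47 for NFKB1, 0.54 for RELB, 0.26 for NFKBIA, 0.28 for NFKBIE and -0.85 for NFKBIZ. NFKBIA and NFKBIE passed in the difference while passing in neither knockdown alone. The NFKBIA difference passed in 9 of 22 alternatives, and its other probe set gave 0.002. That of NFKBIE passed in 18 of 22, but not under hybridisation or poly-A spike-in scaling. Among TNF-induced genes the difference was -0.37 for TNFAIP2, 1.24 for TNFAIP6 and 0.39 for TNFAIP8. The other TNFAIP2 probe set gave 0.03 and did not pass. Among interleukins the difference was 0.57 for IL1A, 0.40 for IL1B, 0.48 for IL6, -0.89 for IL11 and 0.67 for IL32. That of IL1A passed in 4 of 21 alternatives, and its other probe set gave -0.059. IL11 and IL6 rose in both knockdowns, IL11 more with FAM60A knocked down and IL6 more with SDS3 knocked down, though the IL6 difference did not pass in 7 of the 12 fits that left out an array. Among chemokines it was -0.49 for CXCL2, 0.87 for CXCL5, where 2 further probe sets did not pass, and 1.47 for CCL2. It was 0.75 for TRAF1 and at least 1.53 for PTX3. Of these differences 6 passed in the same direction under every alternative, those of CCL2, CXCL2, IL11, NFKBIZ, PTX3 and TNFAIP6.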

How the results depend on the processing

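The count of genes passing was 23 in the FAM60A knockdown, 21 in the SDS3 knockdown and 18 for the difference. Leaving out each array in turn gave 20 to 22, 17 to 21 and 15 to 18. With the replicate number as a block the counts were 22, 19 and 16, and the block ended the calls on IL1B in the FAM60A knockdown, NFKB1 and NFKBIZ in the SDS3 knockdown, and NFKBIA and IL1A in the difference. Whether the numbers pair the arrays cannot be settled with 3 arrays per group. Deviations of arrays with the same number correlated at -0.07, -0.12 and -0.08 in the FAM60A experiment and at -0.03, 0.03 and -0.08 in the SDS3 experiment. Those of arrays with different numbers correlated at -0.07 to 0.15 and at -0.08 to 0.10, respectively. Arrays scaled to poly-A spike-ins, an alternative added once the data had been seen, gave 13 for FAM60A, 16 for SDS3 and 9 for the difference, and 11 of the 21 SDS3 calls were among its 16. That scaling turned the SDS3 changes of NFKB1, RELA and NFKBIZ to -0.089, -0.057 and -0.13, and those of JUNB and MYD88 to -0.14 and -0.077. It left 1353 genes higher and 2260 lower of all tested in the FAM60A knockdown, against 3577 and 3278, 498 and 9062 in the SDS3 knockdown, against 2941 and 3498, and 193 and 2366 in the difference, against 1861 and 2855. Hybridisation spike-ins as the scale moved the median of the difference over all genes by -0.14, from 0.01 to -0.12. Without probe sets of shared sequence IL1A turned to -0.078 in the SDS3 knockdown and -0.059 in the difference. With the mean of all probe sets OTULIN turned to -0.13 in the SDS3 knockdown, and the differences of IL6ST and IL6R to -0.011 and 0.26. An adjusted p of 0.01 left 1880 genes higher and 2397 lower in the SDS3 knockdown, and 952 and 1859 in the difference. The cause of these shifts was not tested. Probe sets near log2 5 give only bounds.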
